A study of Homo sapiens with 2 samples.

Results

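The genes of the NuRD complex were examined in the RUNX2 and MTA1 peaks of MDA-MB-231 cells, an established human line of triple-negative breast cancer. The genes were listed by name, namely MTA1, MTA2, MTA3, HDAC1, HDAC2, CHD4, RBBP4, RBBP7, MBD3 and GATAD2A, which are 10 of the 20037 protein-coding genes of the RefSeq table of GRCh38.p14. All 10 were found there, and every peak inside them or within 20 kb of them was taken. The labels name no treatment of the cells, and chromatin was profiled by CUT&Tag, in which an antibody directs a transposase to the DNA around a bound protein. There was 1 library with an antibody against RUNX2 and 1 library with an antibody against MTA1, so no value has a replicate and no p-value was computed. Which antibody products were used is uncertain, since the suppliers given in the labels are not those given in the methods. The labels also describe adaptor ligation, which is not usual in CUT&Tag. Each library was given as a list of peaks with a score whose scale is not stated, so each score was ranked within its own list, and a rank is given below as the percentage of peaks of that list with a lower score. A start without a peak may have no signal or a weak signal. The number of reads is unknown, and intervals cover the counting of peaks only.

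NuRD joins histone deacetylation and nucleosome remodelling in a single assembly. HDAC1 and HDAC2 remove acetyl groups from histone tails, CHD4 moves nucleosomes with the energy of ATP, and MTA1, MTA2 and MTA3 are alternative scaffolds that hold the deacetylases. RBBP4 and RBBP7 are histone chaperones of the WD40 type, MBD3 belongs to the methyl-CpG binding domain family, and GATAD2A links MBD3 to CHD4. The study mapped RUNX2, a DNA-binding factor of bone formation, and MTA1 to find genes bound by both. In these data MTA1 is thus both an antibody target and a gene at which peaks can lie, and below "MTA1 peaks" refers to the library and "the MTA1 gene" to the locus.

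The submitters' processing notes name the build hg19, but the listed positions fit GRCh38. Of 22199 annotated starts of protein-coding genes in GRCh38, 47.7% had a RUNX2 peak within 1 kb and 49.3% an MTA1 peak. After a move of 100 kb these shares were 7.41% and 5.65%. The lists held 61700 RUNX2 and 42683 MTA1 peaks on chromosomes 1 to 22, X and Y.

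The start windows of 5 members are shown because they hold the main contrasts of these data. MTA1, MTA2 and MTA3 are paralogues that differ in their peaks, and GATAD2A had the highest-ranked start peaks. The window of HDAC2 overlapped peaks of both lists, which extend beyond it, and held none of the letters searched. Each window runs 5′ to 3′ on the strand of the gene, from 250 bases before to 50 bases after the annotated start. The sequences are those of RefSeq (GRCh38.p14). They lie at chr14:105419577-105419876 on the plus strand (MTA1), chr11:62601816-62602115 on the minus strand (MTA2), chr2:42493860-42494159 on the plus strand (MTA3), chr19:19385593-19385892 on the plus strand (GATAD2A) and chr6:113971099-113971398 on the minus strand (HDAC2). Capitals mark the letters searched on both strands, namely the RUNX core TGTGGT or TGCGGT, the AP-1 site TGANTCA, the GC box GGGCGG, the ETS site CCGGAA and the CCAAT box.
MTA1: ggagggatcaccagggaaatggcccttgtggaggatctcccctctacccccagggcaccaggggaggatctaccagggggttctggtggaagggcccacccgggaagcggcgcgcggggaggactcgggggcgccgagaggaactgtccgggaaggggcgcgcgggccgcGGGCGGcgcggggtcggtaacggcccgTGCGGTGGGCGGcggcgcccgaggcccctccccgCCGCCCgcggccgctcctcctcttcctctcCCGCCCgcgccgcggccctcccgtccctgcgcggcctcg
MTA2: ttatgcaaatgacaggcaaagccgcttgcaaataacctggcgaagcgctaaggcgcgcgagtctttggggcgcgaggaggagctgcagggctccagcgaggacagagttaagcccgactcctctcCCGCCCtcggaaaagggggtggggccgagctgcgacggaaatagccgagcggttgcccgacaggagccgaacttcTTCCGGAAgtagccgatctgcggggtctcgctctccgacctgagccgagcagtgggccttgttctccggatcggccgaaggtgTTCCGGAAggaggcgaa
MTA3: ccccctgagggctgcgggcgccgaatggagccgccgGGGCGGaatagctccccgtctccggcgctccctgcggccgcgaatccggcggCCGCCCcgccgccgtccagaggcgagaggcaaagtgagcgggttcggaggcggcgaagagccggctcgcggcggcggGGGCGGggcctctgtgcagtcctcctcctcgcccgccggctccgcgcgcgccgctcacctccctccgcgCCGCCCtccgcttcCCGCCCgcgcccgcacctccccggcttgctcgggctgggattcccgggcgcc
GATAD2A: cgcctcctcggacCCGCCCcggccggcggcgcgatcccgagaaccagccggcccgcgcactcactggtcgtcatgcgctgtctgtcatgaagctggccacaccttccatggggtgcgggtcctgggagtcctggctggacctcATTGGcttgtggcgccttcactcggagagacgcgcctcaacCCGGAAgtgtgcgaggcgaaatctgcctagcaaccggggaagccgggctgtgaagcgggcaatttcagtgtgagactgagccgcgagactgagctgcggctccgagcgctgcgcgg
HDAC2: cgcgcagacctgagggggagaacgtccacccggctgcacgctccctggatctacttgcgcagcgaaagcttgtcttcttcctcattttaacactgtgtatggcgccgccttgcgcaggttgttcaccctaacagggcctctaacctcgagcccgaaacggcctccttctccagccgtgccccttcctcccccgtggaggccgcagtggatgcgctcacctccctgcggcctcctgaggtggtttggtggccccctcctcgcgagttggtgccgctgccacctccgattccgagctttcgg

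The RUNX core occurred in 1 of the 15 start windows of the 10 genes, that of the MTA1 gene, with TGCGGT at position -53 from the start. This is a window without a peak of either list. The TGTGGT form was in 0 of the 15 windows, while the windows of all 22199 starts held TGTGGT in 11.3% and TGCGGT in 8.54%. The GC box was present in 13 of the 15 windows and in 56.3% of all windows. Of the windows that overlapped peaks of both lists 76.9% held the GC box. The ETS site was present in 8, against 21.2% of all windows and 35.3% of those with both, and in MTA2 it formed a pair of palindromes that match on both strands. The CCAAT box was present in 7 (34.7% of all, 42.7% of those with both) and the AP-1 site in 0 (6.15% of all). GC boxes overlapped each other in windows of HDAC1, RBBP7 and GATAD2A, and the windows of the RBBP4 starts shared bases. Over all windows either RUNX core was in 20.5% of those with peaks of both lists, in 29.6% with RUNX2 alone, in 11.3% with MTA1 alone and in 18.3% with neither. The windows were also rich in CpG, with a median of 38 CpG in 300 bases against 21 over all windows. By comparison, windows that overlapped peaks of both lists had a median of 27 CpG and those without a peak had 10. Such matches describe letters only.

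At the starts, 7 of the 10 genes carried peaks of both lists within 1 kb. These were MTA2, HDAC1, HDAC2, RBBP4, RBBP7, MBD3 and GATAD2A. RUNX2 peaks were present at 9 genes, which were these with MTA3 and CHD4, and MTA1 peaks at 7. The MTA1 gene was the 1 member with neither. Of 15842 protein-coding genes with an annotated start, RUNX2 peaks were at 52.1%, MTA1 peaks at 53.9%, peaks of both at 46.9% and of neither at 40.9%. The shares with a peak were higher at CpG-rich starts. Among the 8237 genes whose richest start window held at least 24 CpG, 69.6% carried RUNX2, 71.8% MTA1 and 63.8% both. This cut was set at the lowest value of a member, so all members pass it by construction. Their richest windows held up to 54 CpG, so the genes above the cut are not matched to them. The 7 of 10 with both is thus near the share of CpG-rich starts, and the part of CpG content in it was not tested. The count fell with a stricter score. When each list was limited to its 10000 strongest peaks, which were 16.2% of the RUNX2 and 23.4% of the MTA1 list, RUNX2 was at the start of 1 member, MTA1 at 6 and both at 1 (GATAD2A). Over protein-coding genes these shares were 15.4%, 26.9% and 13.2%. With 3 kb around either gene end, which needs no strand, 8 of the 10 had both lists against 51.9% of protein-coding genes. All 10 had at least 1 peak of each list in the gene or within 20 kb, as did 76.9% of protein-coding genes.

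**Figure D1:**
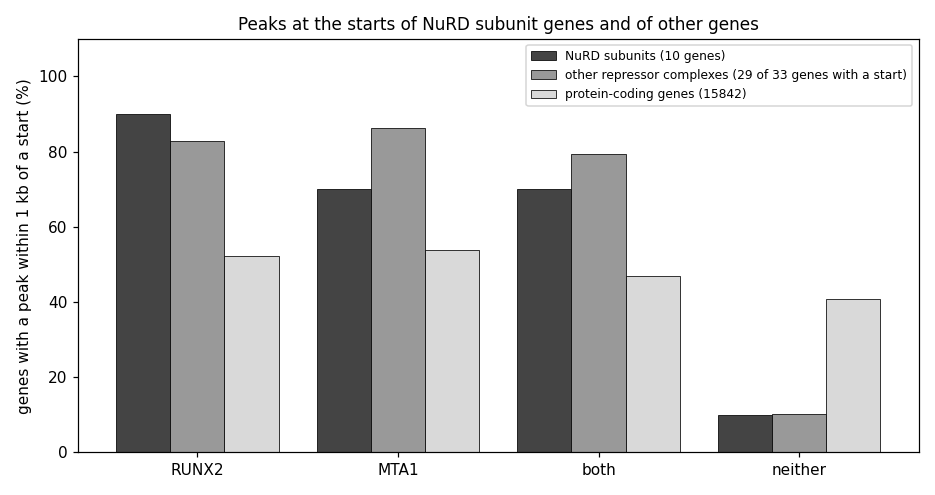
Percentage of genes (y axis) with a peak within 1 kb of an annotated start, for the RUNX2 list, the MTA1 list, both and neither (x axis). Bars stand for the 10 NuRD subunit genes, the 29 of 33 genes of other repressor complexes that have an annotated start, and 15842 protein-coding genes. Both groups of complex genes lie above all protein-coding genes for RUNX2, MTA1 and both, and below them for neither.

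The deacetylase genes had start peaks of both lists. At HDAC1 the RUNX2 peak at chr1:32291837-32292149 scored 15.6 and ranked above 81.7% of its list. The MTA1 peak at chr1:32291843-32292161 scored 20.7 and ranked above 88.6%, and the centres of these peaks were 9 bp apart. At HDAC2 the RUNX2 peak at chr6:113971143-113971514 scored 11.8 and the MTA1 peak at chr6:113971081-113971474 scored 9.58. Both also overlapped HDAC2-AS2, so they cannot be assigned to either gene. HDAC2 was the 1 member in which the start peak ranked higher in the RUNX2 list (74.1%) than in the MTA1 list (62.6%). It also had few other peaks, namely 2 weak RUNX2 peaks with scores of 4.97 and 5.22 and no further MTA1 peak. At HDAC1 a weaker shared pair lay 30.0 kb inside the gene, with scores of 8.69 for RUNX2 and 5.92 for MTA1. Beyond its far end were 2 RUNX2 peaks without an MTA1 partner. There were also 2 MTA1 peaks without a RUNX2 partner, with scores of 4.46 and 8.06. The stronger RUNX2 peak, at chr1:32349246-32349484, lay in LOC105378629. With a score of 25.7 it ranked above 91.7% of RUNX2 peaks, higher than the start peak.

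The histone chaperone genes both had start peaks of both lists, but differed in their number. At RBBP4 there were 2 shared pairs, at -652 and -139 bp by the RUNX2 centres. The RUNX2 scores were 10.0 and 10.1, while the MTA1 scores were 12.6 and 24.0. Among the 7 genes the rank differed most between the lists here, with 69.0% for RUNX2 and 91.7% for MTA1. ZBTB8OS starts 276 bp away on the opposite strand, and these peaks cannot be assigned to either gene. At RBBP7, on chromosome X, the main pair scored 12.5 for RUNX2 and 17.6 for MTA1. A second RUNX2 peak 168 bp after the start had a score of 3.24, near the lowest of its list, and no partner. Inside RBBP7 a further weak pair lay 13.6 kb from the second start, with scores of 7.54 and 5.85. RBBP4 had no peak between its start and its far end. The RUNX2 peak of highest score in its neighbourhood, 19.1, lay inside the next gene, SYNC, and had no MTA1 partner.

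Among the scaffold genes the start peaks differed between the paralogues. MTA2 had a pair directly over its first start, with the RUNX2 centre -6.5 bp and the MTA1 centre 16.5 bp from it. The RUNX2 peak at chr11:62601717-62602026 scored 14.0 (78.9%) and the MTA1 peak at chr11:62601662-62602035 scored 28.7 (94.7%). The strongest pair of MTA2 lay inside the gene, 1.92 kb from the second start by the RUNX2 centre. There the RUNX2 peak at chr11:62599172-62599487 scored 50.02 and the MTA1 peak at chr11:62599191-62599503 scored 52.3, higher than 98.5% and 99.5% of their lists. Strong pairs also lay at the starts of the neighbours TUT1 (29.7 and 34.6) and EEF1G (30.8 and 48.4). MTA2 is the shortest member, with 8652 bp, and carried 10.3 peaks of each list per 100 kb of gene and flanks, more than 91.9% of protein-coding genes for RUNX2 and 94.7% for MTA1.

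The MTA1 gene showed the opposite arrangement, with nothing at the start and strong peaks far from it. The peaks nearest to its start, with edges 8542 bp (RUNX2) and 8536 bp (MTA1) away, formed a weak pair with scores of 4.61 and 7.82, inside TEX22. Within the gene were 2 RUNX2 and 3 MTA1 peaks. A single pair among them overlapped, 46.0 kb from the start, and here the lists were uneven. The RUNX2 peak at chr14:105465544-105466040 was 497 bp wide and ranked above 98.8% of its list with a score of 51.9. The MTA1 peak at chr14:105465817-105466007 was 191 bp wide, scored 13.2 and ranked above 75.4%. The remaining MTA1 peaks within the gene scored 4.58 and 3.10. The highest MTA1 peak of the neighbourhood lay at the start of TEDC1, with 42.5 beside a RUNX2 score of 46.9. Between these genes lay 2 further pairs and 1 unpaired RUNX2 peak, with RUNX2 scores of 11.1 to 14.4.

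MTA3 was the member with the fewest peaks, although it is the longest with 262837 bp. It had 2 RUNX2 peaks just inside its first start, at 769 and 1038 bp, with scores of 4.73 and 8.03 and no overlap with the MTA1 list. KCNG3 starts 128 bp from it on the opposite strand. The 1 MTA1 peak of the neighbourhood was of the narrowest width in its list (116 bp), scored 4.99 and lay in HAAO beyond the far end. Per 100 kb MTA3 had 0.660 RUNX2 and 0.330 MTA1 peaks, more than 17.5% and 20.9% of protein-coding genes. The window of its first start held 49 CpG, more than 98.0% of start windows, and that of its second start held 6, the fewest of the 15 member windows. The start window of the MTA1 gene held 39 CpG, and those of MTA2 held 30 and 38.

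MBD3 and GATAD2A, which connect the deacetylase and remodelling parts, both had 2 shared pairs at starts. At MBD3 the pairs were of middle rank. The RUNX2 peaks scored 8.81 (-111 bp) and 10.2 (429 bp), and the MTA1 peaks scored 15.3 (-89 bp) and 11.1 (417 bp). The order of the pairs was thus different in the lists. A second group of shared peaks, with scores of up to 9.38 for RUNX2 and 9.35 for MTA1, lay near the start of UQCR11. All 5 MTA1 peaks around MBD3 overlapped a RUNX2 peak.

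GATAD2A had the highest start peaks of the 10 genes and the most peaks in all, 11 in each list. At the first start the RUNX2 peak at chr19:19385293-19385869 scored 39.6 (97.0%) and the MTA1 peak at chr19:19385301-19385911 scored 56.7 (99.7%). Among genes with a start peak, GATAD2A ranked above 96.1% for RUNX2 and 98.5% for MTA1. The second start, further along the gene, carried another pair with scores of 16.4 and 34.4. Upstream lay 3 more pairs, within LOC124904656. Inside the gene, away from both starts, 5 RUNX2 and 5 MTA1 peaks were listed and none of them overlapped. Their scores were 4.33 to 7.79 for RUNX2 and 4.99 to 8.76 for MTA1. The RUNX2 peak at chr19:19444787-19444885 and the MTA1 peak at chr19:19444943-19445181 lay close together without sharing a base. Over all protein-coding genes with a start, 39.4% of RUNX2 and 61.6% of MTA1 peaks placed inside genes in this way were shared. The strongest unpaired MTA1 peak of all 10 neighbourhoods, at chr19:19516026-19516397 with a score of 44.8 (98.8%), lay near the starts of TSSK6 and NDUFA13. LOC124904656 starts 294 bp from the first start of GATAD2A on the opposite strand, so its strongest pair cannot be assigned to either gene.

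CHD4, the remodelling subunit, had no MTA1 peak within 1 kb of its annotated start, and no peak of either list elsewhere in the gene. Its RUNX2 start peak, at chr12:6607343-6607533 with a score of 9.54, lay at -987 bp from that start and had no partner. The annotation of the gene extends beyond this start, and the peak touches its outer end. A wide pair followed at -1.77 kb by the RUNX2 centre, in LOC124902867, which starts 565 bp away on the opposite strand. There the RUNX2 peak at chr12:6607846-6608594 scored 33.7 (95.4%) and the MTA1 peak at chr12:6607818-6608571 scored 12.2 (73.0%). Both peaks of this pair lay within 1 kb of that outer end, so the lack of an MTA1 peak at CHD4 depends on the start used. With 3 kb around the start in place of 1 kb CHD4 counted as having both lists. A pair of more even rank lay at the start of LOC105369631, with scores of 24.6 and 26.4. CHD4 had 8 peaks of each list, 10.3 per 100 kb, more than 92.1% of protein-coding genes for RUNX2 and 94.8% for MTA1, but 7 of the RUNX2 and 8 of the MTA1 peaks were outside the gene.

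**Figure D2:**
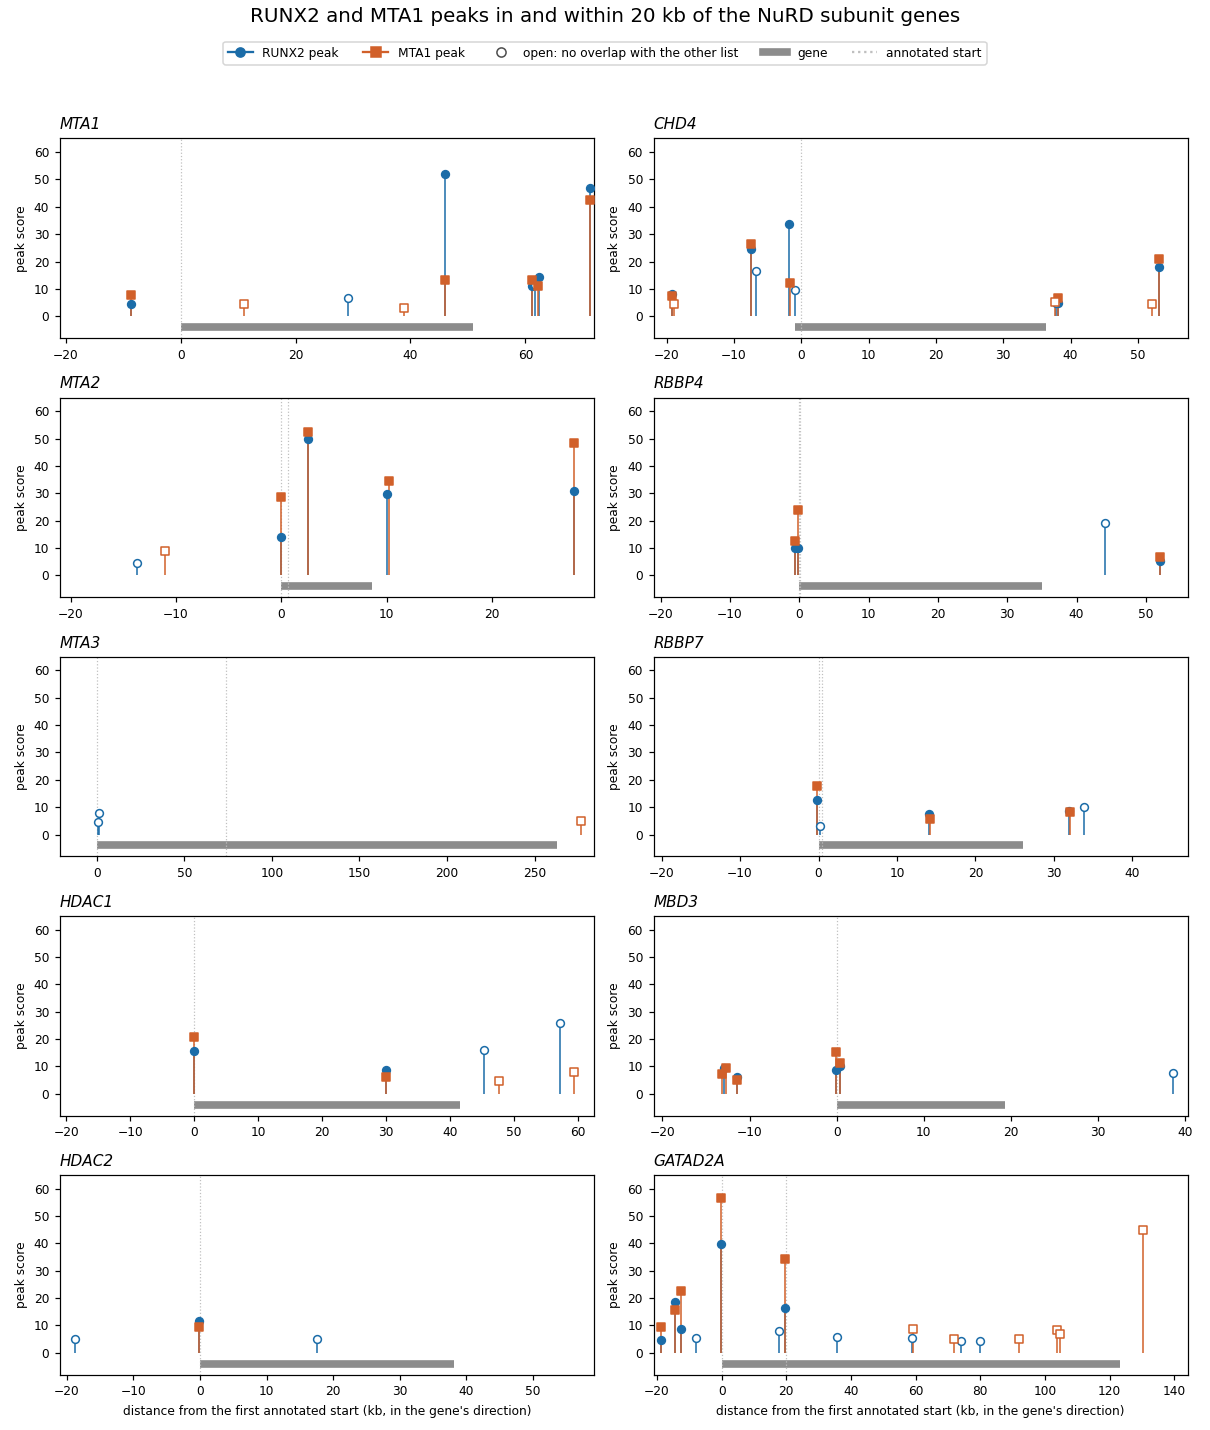
Score of each RUNX2 peak (circles) and MTA1 peak (squares) against the distance of its centre from the first annotated start in kb, for the 10 NuRD subunit genes. Grey bars mark the gene, dotted lines the annotated starts, and open symbols the peaks that overlap no peak of the other list. The MTA1 gene has no peak at its start. A tall RUNX2 peak lies 46.0 kb from that start, with a lower MTA1 peak. The tall pair at 71.2 kb lies outside the gene, at the start of TEDC1. GATAD2A has the tallest start peaks.

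Across the 7 genes with both, the stronger start peak ranked from 69.0% to 97.0% in the RUNX2 list and from 62.6% to 99.7% in the MTA1 list. The MTA1 rank was the higher in 6 of them, HDAC2 being the exception. Of the 7437 protein-coding genes with both, 63.8% had the higher rank in the MTA1 list. Among the genes of other repressor complexes counted below, this held for 10 of the 23 with both. It held for 0 of the 4 other NuRD genes with both. The median rank over members with a start peak was 74.1% for RUNX2 and 88.6% for MTA1, against 72.0% and 76.4% over all protein-coding genes with one. Both start peaks were in the top 10% of their lists at 1 of the 10 genes, GATAD2A, and at 6.62% of protein-coding genes. The shared start pairs overlap by definition, which limits the distance between their centres. Over 10 pairs of the members the centres were 4 to 56 bp apart with a median of 22.5 bp. The 7484 pairs at all starts were 0 to 530 bp apart with a median of 38.5 bp. The start peaks of the members had a median width of 265 bp in the RUNX2 list and 374.5 bp in the MTA1 list. Another gene started within 1 kb at 4 of the 10 members (MTA3, CHD4, RBBP4 and GATAD2A), against 27.8% of protein-coding genes.

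**Figure D3:**
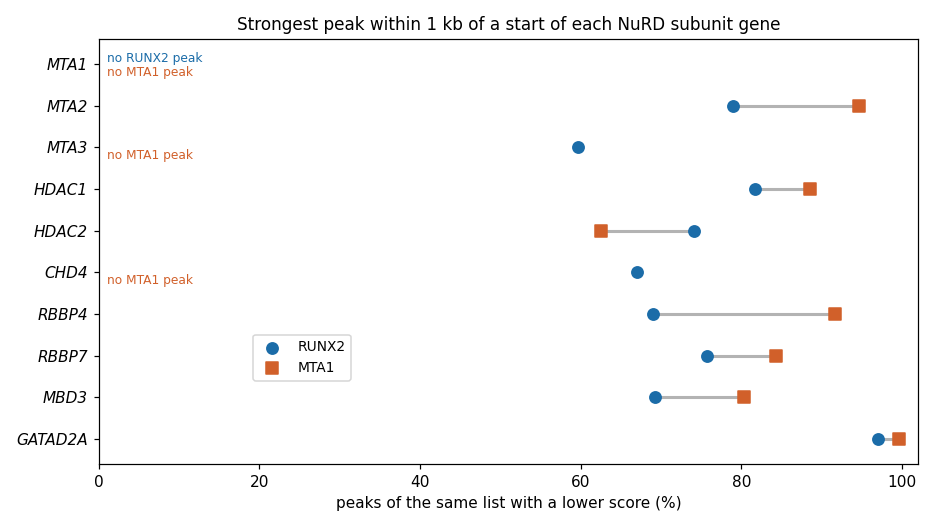
Percentage of peaks of the same list with a lower score (x axis) for the strongest peak within 1 kb of a start of each NuRD subunit gene (y axis), RUNX2 as circles and MTA1 as squares. Grey lines join the lists where both have a peak. The squares lie to the right at 6 of 7 genes, and HDAC2 is the exception.

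In all, 54 RUNX2 and 48 MTA1 peaks lay in the 10 genes or within 20 kb. Of the RUNX2 peaks 32 overlapped an MTA1 peak, which was 59.3% (exact 95% interval 45.0% to 72.4%). Over all RUNX2 peaks within 20 kb of a protein-coding gene it was 48.6%, within that interval. In the MTA1 list 33 were shared with RUNX2, or 68.8% (53.7% to 81.3%), against 66.9%. Per 100 kb of gene and flanks the members had a median of 7.16 RUNX2 and 5.83 MTA1 peaks, and protein-coding genes with a start had 3.59 and 2.55. The density was above that of most protein-coding genes for both lists at 8 members, the exceptions being MTA3 for both lists and HDAC2 for MTA1 (30.2%). At starts 10 of 14 RUNX2 peaks were shared (71.4%, 41.9% to 91.6%) and 10 of 10 MTA1 peaks (69.2% to 100%). Over all protein-coding genes with a start, where each pair of a gene and a peak was counted, 78.5% and 77.8% were shared at starts. Elsewhere in the member genes 4 of 11 RUNX2 and 4 of 11 MTA1 peaks were shared (10.9% to 69.2% for each), against 39.4% and 61.6% over all genes. In the flanks 18 of 29 and 19 of 27 were shared, against 54.6% and 68.7%. The higher overlap at starts than within genes was thus seen over all genes too. At starts and within genes the shares of all genes lay inside the intervals of the members. These overlap intervals treat peaks clustered in 10 neighbourhoods as independent, so lying inside them does not decide whether the members differ. The top 10% of scores held 9 of the 54 RUNX2 peaks (16.7%, 7.92% to 29.3%) and 11 of the 48 MTA1 peaks (22.9%, 12.0% to 37.3%). Around all protein-coding genes these shares were 10.4% and 11.1%. The MTA1 interval lies above the latter value, but it treats peaks clustered in 10 neighbourhoods of 1 library as independent and decides nothing here. Of the 11 peaks 4 were from the neighbourhood of MTA2 and 4 from that of GATAD2A. Some of the 11 lay at the starts of neighbouring genes, among them EEF1G, TUT1 and TEDC1.

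**Figure D4:**
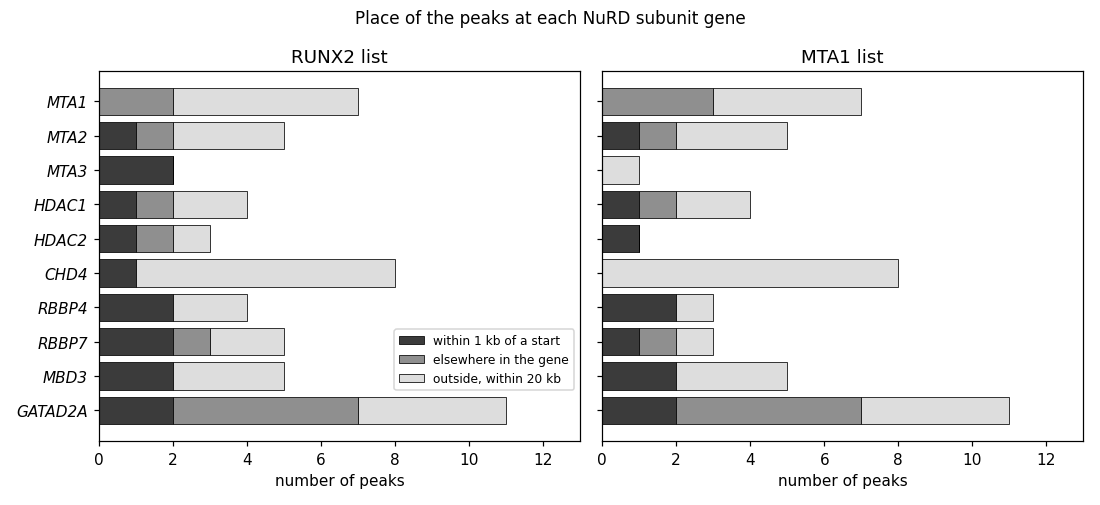
Number of RUNX2 peaks (left) and MTA1 peaks (right) at each NuRD subunit gene, split by place into starts (within 1 kb), elsewhere in the gene, and outside within 20 kb. GATAD2A has 11 peaks in each list, MTA3 has 2 and 1, and the MTA1 gene has no peak at its start.

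The other genes of repressor complexes built around class I deacetylases or the RBBP chaperones were counted in the same way. There were 33 of them, of which 29 had an annotated start. Peaks of both lists were at the start in 23 of the 29 (79.3%), of RUNX2 in 24 and of MTA1 in 25. The corresponding counts of the members were 7, 9 and 7 of 10. Over protein-coding genes with a start the shares were 46.9%, 52.1% and 53.9%, and at CpG-rich starts 63.8%, 69.6% and 71.8%. The CpG content of these other genes was not compared. By complex, both lists were at the start in 4 of 5 other NuRD genes, 6 of 9 SIN3 genes, 5 of 5 CoREST genes, 3 of 5 NCoR genes and 5 of 5 genes of PRC2 and CAF-1. In 7 of the 29 (24.1%, against 6.62% of protein-coding genes) both start peaks were in the top 10% of their lists. These were GATAD2B, the paralogue of GATAD2A (RUNX2 score 48.4, MTA1 score 38.8), SIN3A, the scaffold of the SIN3 complex (46.8 and 31.4), and ING1, its histone reader (39.3 and 28.2). The others were KDM1A, the histone demethylase of CoREST (27.0 and 28.3), HMG20B of the same complex (30.9 and 28.3), TBL1X of NCoR (37.9 and 23.5), and CHAF1A, the large subunit of CAF-1 (45.4 and 61.8). No start peak of either list was found at CDK2AP1, ING2 and SIN3B. CDK2AP1, a small NuRD subunit, had 1 RUNX2 peak and 0 MTA1 peaks within 20 kb. Among paralogues of the members, MBD2 had a start pair with a RUNX2 score of 16.2 and an MTA1 score of 8.69, and CHD3, which can take the place of CHD4, had one with 22.0 and 17.0.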

How the data were processed

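CUT&Tag libraries of MDA-MB-231 cells with antibodies against RUNX2 and MTA1 were sequenced, and peaks were called in each library by the authors. The submitters' processing notes name CASAVA 1.4, Bowtie 0.12.8, MACS and MACS2 without roles; the threshold and any control library are not given in the sources used here. The deposited lists give the position of each peak and a score whose scale the authors do not state.

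Positions were made 1-based. Genes and starts came from RefSeq GRCh38.p14, where a start is 250 bases into its 300-base window. Starts were annotated for 15842 of 20037 protein-coding genes. A peak was at a start when it overlapped the 1 kb on either side. Peaks sharing at least 1 bp overlapped. Ranks are the percent of peaks of the list with a lower score. The table gives no exons, so exon and intron were not assigned. The counting was tested on simulated data. The work used pandas 2.3.3 and numpy 2.4.6 in Python 3.11.15, with scipy 1.17.1 for intervals and matplotlib 3.10.9 for plots.

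The members, gene lists and settings were chosen with earlier results of these data known. Named genes are the 10 members, other complex genes with both start peaks in the top 10% of scores or with none, and genes holding the strongest peak of a neighbourhood. ZBTB8OS, KCNG3, TUT1, EEF1G, TEX22, UQCR11, TSSK6, NDUFA13, LOC124904656, HDAC2-AS2, MBD2 and CHD3 were named after their values were seen. The CpG-rich background and the shares over all genes by place and for the 10000 highest-scoring peaks were added after seeing the data.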

Additional observations from a re-analysis of the deposited data

How the results depend on the processing

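The lists have 1 library each and no known depth, so whether a start without a peak, as at the MTA1 gene, is empty was not detectable. No paired analysis was possible because each antibody has 1 library. Of 56 alternative values, 40 were counted as close to the reported ones and 16 were not. The tolerance was wide. Counted as close were 37 RUNX2 peaks with 10 kb flanks, against 54 as reported. An MTA1 overlap of 56.25%, where at least 50% of both peaks had to overlap, was also counted as close to the reported 68.75%. The count of 40 is therefore not a measure of stability. Fewer peaks or shorter flanks lower counts by construction. The number of RUNX2 peaks, 54 as reported, was 85 with 50 kb flanks, 22 in gene bodies only and 12 among the 10000 highest-scoring peaks. The number of MTA1 peaks, 48 as reported, was 30 with 10 kb flanks, 73 with 50 kb flanks, 20 in gene bodies only, 31 at or above the median score and 16 among the 10000 highest-scoring peaks. With these 10000 peaks, RUNX2 remained at the start of 1 gene and both lists at 1, GATAD2A, RUNX2 at an end of 3 genes and both at 2, against 17.9% and 14.8% of protein-coding genes. This number keeps unlike parts of the lists, 16.2% of RUNX2 and 23.4% of MTA1 peaks. MTA1 remained at the start of 6 genes. Of the 16 MTA1 peaks 50% were shared, and the share over all genes at this setting is not given here. The median rank of the strongest peak per gene was 89.0% for RUNX2 and 90.2% for MTA1. In gene bodies only it was 75.8% and 86.5%, and with 50 kb flanks it was 93.5% for RUNX2. The 7 genes with both lists at a start were the same within 250 bp, at or above the median score and without the narrowest peaks, and CHD4 joined them within 3 kb. RUNX2 peaks were at the start of 9 genes as reported and of 7 within 250 bp, the same number as MTA1 peaks. MTA3 and CHD4 dropped out, as the edges of their RUNX2 peaks lay 716 and 892 bp from the first start.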
